A study of Mus musculus with 16 samples.

Results

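Collagen transcripts were examined in cultured mouse brain endothelial cells that carry human *APOE3* or human *APOE4*. The genes were all rows of the count table whose GENCODE vM21 symbol is Col, digits, the letter a and digits, with the gene type protein coding, which gave 44 of 39057 rows. The rule left out Col4a3bp, which is not a collagen. Both groups came from targeted replacement mice, in which a human *APOE* isoform is expressed under the endogenous mouse promoter, and no wild-type cells were compared. Cerebral cortices, with the meninges removed, came from mice aged 21 to 28 days at 1 brain per well, and each genotype had 8 cultures, 4 from males and 4 from females, each from a separate animal. The cells were selected in 8 µg/ml puromycin, grown to confluence on a matrix of fibronectin, collagen and laminin, and left untreated. The cells thus stood on added collagen protein when their own collagen transcripts were measured.

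Libraries held 12717847 to 18624417 counted reads. Human APOE was present in every library, with 15504 to 22318 counts in *APOE3* and 7672 to 14722 counts in *APOE4*, which shows the human gene but cannot tell the isoforms apart. The 14 endothelial markers (Pecam1, Cdh5, Cldn5 and others) summed to 17009.7 to 18104 CPM in *APOE3* and 16869.5 to 18737 CPM in *APOE4* libraries. CPM is counts per 1000000 reads after TMM scaling of the library size. Among the markers 1, Emcn, was called between genotypes (log2 fold change 0.14, adjusted p = 0.0106). In edgeR 5 of the 14 had an unadjusted p under 0.05, as had 3617 of all 12481 genes tested. The median log2 fold change of the 14 was -0.036. RNA was extracted from whole wells, so fewer cells of a type and less RNA per cell cannot be told apart in any value below.

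Collagens are proteins of 3 chains wound into a triple helix, and each chain has its own gene. Type IV collagen forms the flat network of the basement membrane, the sheet on which brain endothelial cells and pericytes sit, and its most widespread form joins chains from Col4a1 and Col4a2. The multiplexins, types XV and XVIII, hang in the basement membrane zone, and type VIII forms short-chain networks under endothelia. Types I, III and V are fibrillar collagens of connective tissue, made mostly by fibroblasts and mural cells, and fibril-associated collagens decorate those fibrils. Type VI forms beaded filaments next to basement membranes. Transmembrane collagens stay in the cell surface with their triple helix outside. Before secretion the chains are hydroxylated, glycosylated and folded in the endoplasmic reticulum, and integrins and discoidin domain receptors sense the finished collagens.

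The collagen transcripts of these cells were overwhelmingly those of the basement membrane. Col4a1 and Col4a2 together held 96.8% of all collagen counts. Collagens as a whole took 1.79% ± 0.0921 (SD, n = 8) of the reads in *APOE3* and 1.97% ± 0.0984 (SD, n = 8) in *APOE4* libraries. The ranges were 1.64% to 1.89% and 1.86% to 2.14%, so the groups overlapped only at their edges. Of the 44 genes, 3 averaged over 100 CPM, 6 lay between 10 and 100 CPM, 15 between 1 and 10 CPM, and 20 at or under 1 CPM.

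To compare genes with one another, levels were divided by exon length. Per kb of exon, Col4a1 averaged 1467 CPM over the 16 libraries (range 1258 to 1695) and Col4a2 1094 CPM (range 964 to 1255). Col18a1 followed at 51.7, Col15a1 at 12.8 and Col5a2 at 3.69 CPM per kb. The ranges over libraries of these 5 did not touch each other. From the sixth place down every gene overlapped the one above it, beginning with Col20a1 at 1.97 and Col1a1 at 1.97 CPM per kb. Col6a1 stood at 1.65, Col8a1 at 1.06 and Col3a1 at 0.283 CPM per kb, and Col4a4 was the lowest gene tested at 0.0771 CPM per kb.

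**Figure D1:**
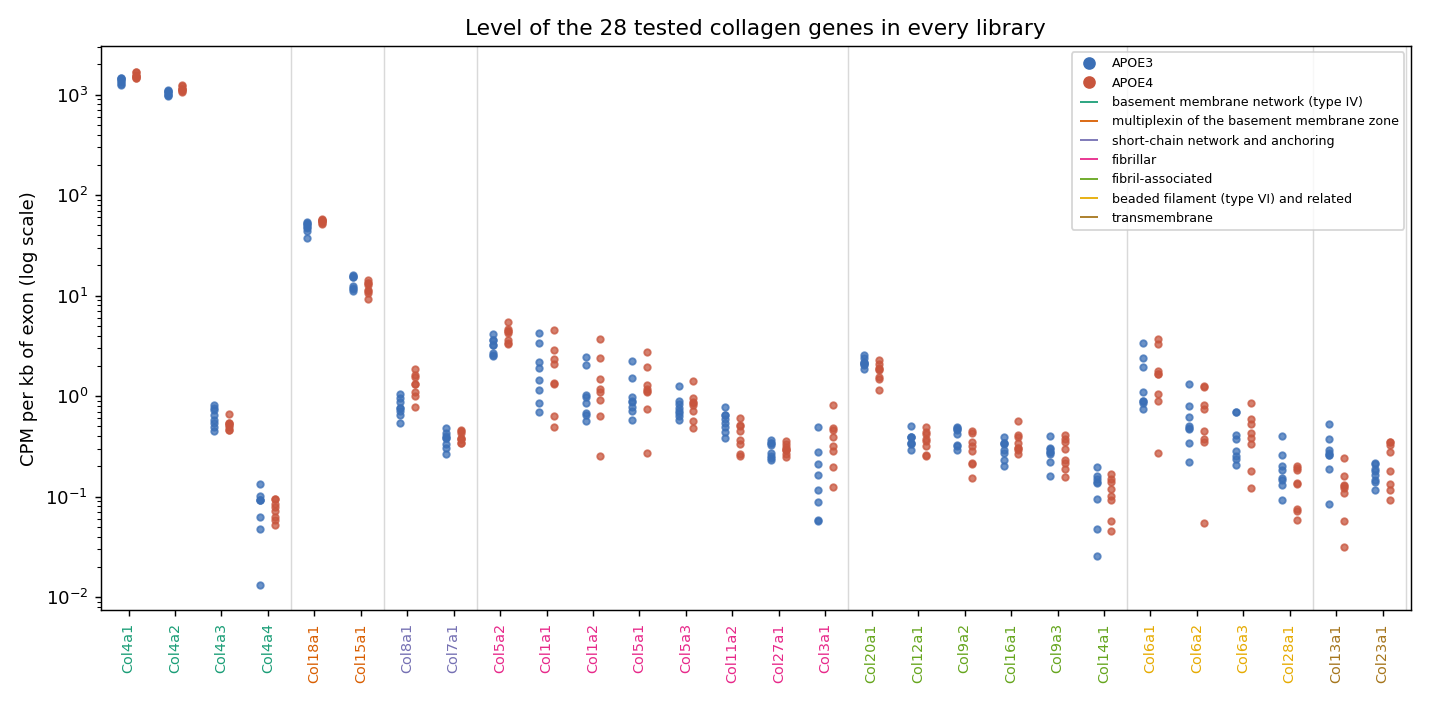
Level of each of the 28 collagen genes that passed the filter on low counts, in CPM per kb of exon on a log axis, with 1 point per library (blue *APOE3*, red *APOE4*) and gene names coloured by class. Col4a1 and Col4a2 lie near 1467 and 1094 CPM per kb, far above the rest, and the points of Col1a1, Col1a2, Col6a1 and Col6a2 are widely spread in both genotypes.

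The question of the comparison was whether *APOE4* brain endothelial cells differ from *APOE3* cells in these transcripts. Of the 44 genes, 28 passed the filter on low counts and were tested, and 6 were differentially expressed at an adjusted p under 0.05 (edgeR quasi-likelihood test, Benjamini-Hochberg adjustment over 12481 genes). Col4a1, Col4a2, Col18a1, Col5a2 and Col8a1 were higher in *APOE4*, and Col13a1 was lower. Over all genes tested, 12.8% passed the same threshold, 6.71% higher and 6.09% lower, and the collagens called made up 21.4% of those tested. The median log2 fold change of the 28 was 0.070, with 16 above and 12 below 0, against -0.00022 over all genes tested. In none of the 6 were the genotypes free of overlap between libraries. The number called fell to 2 without *APOE3* replicate 30 and to 3 without *APOE3* replicate 33 or *APOE4* replicate 41. Over all genes those fits called 853 of 12531, 952 of 12575 and 846 of 12546, against 1597 of 12481 with every library. Over the omission of each library in turn, 2 to 8 collagens were called, and 846 to 2127 of all genes. The cell cycle score, the mean log2 CPM of 26 proliferation genes, ran from 5.17 to 6.23 in *APOE3* and from 5.94 to 6.73 in *APOE4* libraries. With that score as a covariate, 0 of the 6 stayed below the threshold (edgeR, 2 of the 28 at an unadjusted p under 0.05), and the same fit called 0 of all 12481 genes, with 900 at an unadjusted p under 0.05. The genotype difference (log2 fold change) in that fit stood at 0.028 (SE 0.030, adjusted p = 0.857) for Col4a1, 0.00048 (SE 0.032, adjusted p = 0.999) for Col4a2, 0.092 (SE 0.073, adjusted p = 0.809) for Col18a1 and 0.18 (SE 0.14, adjusted p = 0.798) for Col5a2, all closer to 0 than without the score. For Col8a1 it was 0.72 (SE 0.22, adjusted p = 0.527) and for Col13a1 -1.53 (SE 0.47, adjusted p = 0.527), and these were the 2 at an unadjusted p under 0.05 among the 6.

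**Figure D2:**
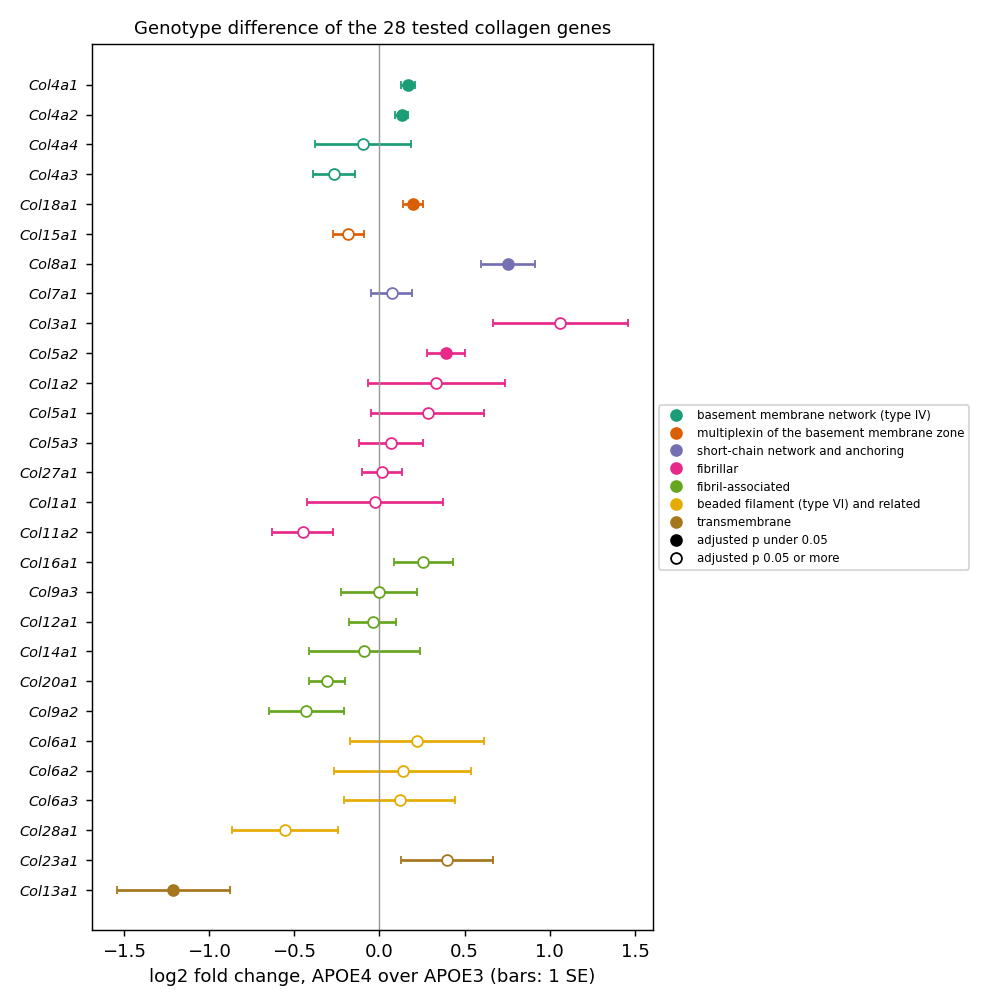
Log2 fold change of *APOE4* over *APOE3* for the 28 tested collagen genes, grouped and coloured by class, with bars of 1 SE. Filled points passed an adjusted p of 0.05: Col4a1, Col4a2, Col18a1, Col8a1 and Col5a2 to the right of 0, and Col13a1 to the left at -1.21.

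Transcripts of the main type IV collagen chains were higher in *APOE4* cultures. Col4a1 (ENSMUSG00000031502.11, chromosome 8 from 11198423 to 11312826, minus strand) and Col4a2 (ENSMUSG00000031503.13, chromosome 8 from 11312805 to 11449287, plus strand) encode the chains that assemble into the common basement membrane network. The genes start head to head (GRCm38 coordinates), and their first exons overlap by 22 bases at chr8:11312805-11312826, shown here because the pair moved together across libraries. The capitals mark a GC box (GGGCGG, searched on both strands), found in 4.09% of the first 22 bases after the 32851 RefSeq starts:
first bases of Col4a2, plus strand: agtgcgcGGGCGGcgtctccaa
first bases of Col4a1, minus strand: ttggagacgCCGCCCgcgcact

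The lowest, median and highest *APOE3* values of Col4a1 were 9391, 10444 and 11016 CPM, and the *APOE4* values were 10873, 11488 and 12653 CPM. The groups overlapped slightly, and 6 of 8 *APOE4* libraries stood above every *APOE3* library. Col4a1 averaged 10312 ± 622 CPM in *APOE3* and 11589 ± 646 CPM in *APOE4* libraries (SD, n = 8; adjusted p = 0.012 for a log2 fold change of 0.17, SE 0.040). For Col4a2 the *APOE3* libraries had a lowest value of 6382, a median of 6978 and a highest value of 7403 CPM, against 7063, 7460.1 and 8308 CPM in *APOE4*. Here 5 of 8 *APOE4* libraries lay above all *APOE3* libraries and none lay below the *APOE3* median. Col4a2 averaged 6916 ± 384 CPM in *APOE3* and 7572 ± 429 CPM in *APOE4* libraries (adjusted p = 0.0324 for a log2 fold change of 0.13, SE 0.039). The Col4a1 call survived the omission of any of the 16 libraries. The Col4a2 call held in 9 of 16 and was lost without *APOE3* replicates 25, 26, 30 or 33 or *APOE4* replicates 35, 40 or 41, with adjusted p up to 0.0754. It was also lost with no filter on low counts, with sex and with 1 surrogate variable as a covariate (highest adjusted p 0.0674).

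Per length, the ratio of Col4a1 to Col4a2 was 1.305 to 1.347 in *APOE3* (median 1.322) and 1.345 to 1.366 in *APOE4* libraries (median 1.357). Both bands were narrow, and they overlapped only at their edges, with the *APOE4* band the higher. The difference in ratio was not tested. The other type IV chains, which form the networks of kidney, lung and other specialised membranes, were scarce. Col4a3 and Col4a4 also start head to head, 71 bases apart, and had log2 fold changes of -0.26 (adjusted p = 0.157) and -0.10 (adjusted p = 0.865). Col4a3 averaged 6.25 ± 1.34 CPM in *APOE3* and 5.22 ± 0.649 CPM in *APOE4* libraries, and Col4a4 reached at most 22 counts. Col4a5 had 0 to 16 and Col4a6 0 to 2 counts per library, and neither was tested.

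Of the 2 multiplexins, Col18a1 was higher in *APOE4* and Col15a1 did not pass the test. Col18a1 (ENSMUSG00000001435.15, chromosome 10 from 77052178 to 77166548, minus strand) encodes type XVIII collagen, a basement membrane proteoglycan whose end is the source of endostatin. The lowest, median and highest *APOE3* values of Col18a1 were 262, 344 and 382 CPM, and the *APOE4* values were 361, 389 and 409.7 CPM. The *APOE3* libraries were spread out and the *APOE4* libraries lay close together at the upper end, 6 of them above every *APOE3* library. Col18a1 averaged 338 ± 38.9 CPM in *APOE3* and 388 ± 16 CPM in *APOE4* libraries (adjusted p = 0.0315 for a log2 fold change of 0.20, SE 0.058), and its call survived 11 of 16 omissions of a single library (lost without *APOE3* replicates 30 or 33 or *APOE4* replicates 35, 40 or 41). Col15a1, the type XV chain found in vascular basement membrane zones, averaged 86.4 ± 12.8 CPM in *APOE3* and 76.2 ± 10.9 CPM in *APOE4* libraries (adjusted p = 0.194 for a log2 fold change of -0.18, SE 0.092). Col15a1 ran from 70.0 CPM over a median of 87.6 to 101 CPM in *APOE3*, and from 58.2 over 76.2 to 91 CPM in *APOE4* libraries. Of the *APOE4* libraries 7 lay below the *APOE3* median, and the ranges overlapped from 70.0 to 91.0 CPM.

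Col8a1 (ENSMUSG00000068196.4, chromosome 16 from 57624258 to 57754737, minus strand), a chain of the short-chain type VIII collagen made by endothelial and smooth muscle cells, was the collagen with the largest rise among those called. For Col8a1 the *APOE3* libraries had a lowest value of 4.22, a median of 5.95 and a highest value of 8.26 CPM, against 6.12, 10.4 and 14.7 CPM in *APOE4*. No *APOE4* library fell under the *APOE3* median and 6 exceeded every *APOE3* library, while the lowest *APOE4* library lay inside the *APOE3* range. Col8a1 averaged 6.18 ± 1.31 CPM in *APOE3* and 10.4 ± 2.8 CPM in *APOE4* libraries (adjusted p = 0.00817 for a log2 fold change of 0.75, SE 0.16). The call survived the omission of any of the 16 libraries. The partner chain Col8a2 was at 0 to 4 counts, and Col10a1, the short-chain collagen of growth plate cartilage, at 0 in every library, which allows up to 3 counts per library. Col7a1, which forms the anchoring fibrils of skin, averaged 3.85 ± 0.722 CPM in *APOE3* and 4.06 ± 0.467 CPM in *APOE4* libraries (adjusted p = 0.737 for a log2 fold change of 0.072, SE 0.12). Col7a1 ran from 2.75 CPM over a median of 3.94 to 5 CPM in *APOE3*, and from 3.53 over 3.9 to 4.72 CPM in *APOE4* libraries. The genotypes lay over each other.

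The 250 bases before the RefSeq start of Col8a1 (GRCm38.p6, chr16:57754738-57754987, minus strand) are shown for the called gene with the largest rise, with capitals at 4 matches to the GC box on either strand, which 32.7% of such stretches before the 32851 RefSeq starts hold. There was no match to the TATA, CCAAT or AP-1 letters, which are spelled out with the sequence of Col13a1:
Col8a1: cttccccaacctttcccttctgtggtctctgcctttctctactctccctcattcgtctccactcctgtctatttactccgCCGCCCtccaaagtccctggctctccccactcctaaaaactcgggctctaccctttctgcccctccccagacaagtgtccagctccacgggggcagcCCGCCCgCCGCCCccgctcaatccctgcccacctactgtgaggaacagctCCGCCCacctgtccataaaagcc

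Of the 11 fibrillar genes, 8 were tested and 1 was called. Col5a2 (ENSMUSG00000026042.16, chromosome 1 from 45374321 to 45503282, minus strand) encodes the type V chain that helps to set fibril diameter. The lowest, median and highest *APOE3* values of Col5a2 were 24, 31 and 39.6 CPM, and the *APOE4* values were 31.9, 41.7 and 52.1 CPM. Every *APOE4* library stood above the *APOE3* median and 5 above all *APOE3* libraries. Col5a2 averaged 30.6 ± 5.53 CPM in *APOE3* and 40.1 ± 6.88 CPM in *APOE4* libraries (adjusted p = 0.0258 for a log2 fold change of 0.39, SE 0.11), and it stayed called when any of 11 of the 16 libraries was left out (lost without *APOE3* replicates 26, 30 or 33 or *APOE4* replicates 37 or 41).

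Col3a1, the type III chain of distensible tissues, lies tail to tail with Col5a2 on chromosome 1, 24614 bases away. For Col3a1 the *APOE3* libraries had a lowest value of 0.563, a median of 1.38 and a highest value of 4.81 CPM, against 1.22, 3.47 and 8.05 CPM in *APOE4*. Its *APOE4* libraries were mostly above the *APOE3* median, 7 of 8, but the genotypes overlapped widely and the test was not passed (adjusted p = 0.0786 for a log2 fold change of 1.06, SE 0.39; counts 8 to 136). It passed without *APOE3* replicate 25 (adjusted p = 0.0193) or *APOE4* replicate 36 (adjusted p = 0.0431). The type I chains, which form the fibrils of bone, skin and vessel walls, did not differ beyond their spread. Col1a2 ran from 7 CPM over a median of 11.5 to 30.5 CPM in *APOE3*, and from 3.15 over 14.1 to 45.9 CPM in *APOE4* libraries. Col1a1 ran from 4.52 CPM over a median of 11 to 28 CPM in *APOE3*, and from 3.26 over 11.3 to 29.5 CPM in *APOE4* libraries. In both genotypes single libraries were high, *APOE3* replicates 25 and 26 and *APOE4* replicate 37, and *APOE4* replicate 39 was the lowest. Neither Col1a2 (adjusted p = 0.626 for a log2 fold change of 0.33, SE 0.40) nor Col1a1 (adjusted p = 0.976 for a log2 fold change of -0.024, SE 0.40) passed the test. Col5a1, Col5a3, Col11a2 and Col27a1 (type V chains, a type XI chain of cartilage and a long fibrillar chain) were tested too, and their log2 fold changes were 0.28, 0.068, -0.45 and 0.017 (adjusted p = 0.614, 0.854, 0.102 and 0.944).

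Of the 9 fibril-associated genes, 6 were tested and 0 called by edgeR, with 1 (Col20a1) at an unadjusted p under 0.05 and called by DESeq2's Wald test. Col20a1, a member of this class, had the highest level per kb of them. The lowest, median and highest *APOE3* values of Col20a1 were 9.66, 11 and 13.2 CPM, and the *APOE4* values were 5.96, 9.44 and 11.7 CPM. It was lower on average in *APOE4* without passing the test (adjusted p = 0.0638 for a log2 fold change of -0.31, SE 0.11), and 5 *APOE4* libraries lay below every *APOE3* library. Without *APOE4* replicate 36 it passed (adjusted p = 0.0262). Col12a1, which sits on type I fibrils, averaged 5.69 ± 0.98 CPM in *APOE3* and 5.56 ± 1.31 CPM in *APOE4* libraries (adjusted p = 0.889 for a log2 fold change of -0.039, SE 0.14). Col12a1 ran from 4.46 CPM over a median of 5.57 to 7.74 CPM in *APOE3*, and from 3.89 over 5.58 to 7.55 CPM in *APOE4* libraries. The *APOE4* values reached lower, with 2 libraries below every *APOE3* library, and the medians lay within the range of both groups. Col9a2 (-0.43), Col9a3 (-0.0029), Col14a1 (-0.088) and Col16a1 (0.26) had the log2 fold changes in parentheses and averaged 0.769 to 2.42 CPM per genotype.

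Transcripts of type VI collagen, the beaded filament collagen made by fibroblasts and mural cells, varied more between libraries than between genotypes. For Col6a1 the *APOE3* libraries had a lowest value of 3.28, a median of 4.39 and a highest value of 14.8 CPM, against 1.18, 7.22 and 16 CPM in *APOE4*. Col6a2 ran from 1.86 CPM over a median of 4.08 to 11 CPM in *APOE3*, and from 0.45 over 4.99 to 10.4 CPM in *APOE4* libraries. For both genes *APOE3* replicate 25 and *APOE4* replicates 37 and 38 were the 3 highest libraries, and *APOE4* replicate 39 was the lowest, as it was for Col1a1 and Col1a2. Within genotypes, the SD of log2 CPM was 0.989 for Col6a1, 1.1 for Col6a2, 0.988 for Col1a1 and 0.983 for Col1a2, against 0.0837 for Col4a1 and 0.0804 for Col4a2. Of the 2566 tested genes within 2-fold of its level, 99.8% had a smaller SD than Col6a1. The log2 fold changes were 0.22, 0.14 and 0.12 for Col6a1, Col6a2 and Col6a3 (SE 0.39, 0.40 and 0.33), and Col28a1, a related gene, had -0.55 (adjusted p = 0.246).

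**Figure D3:**
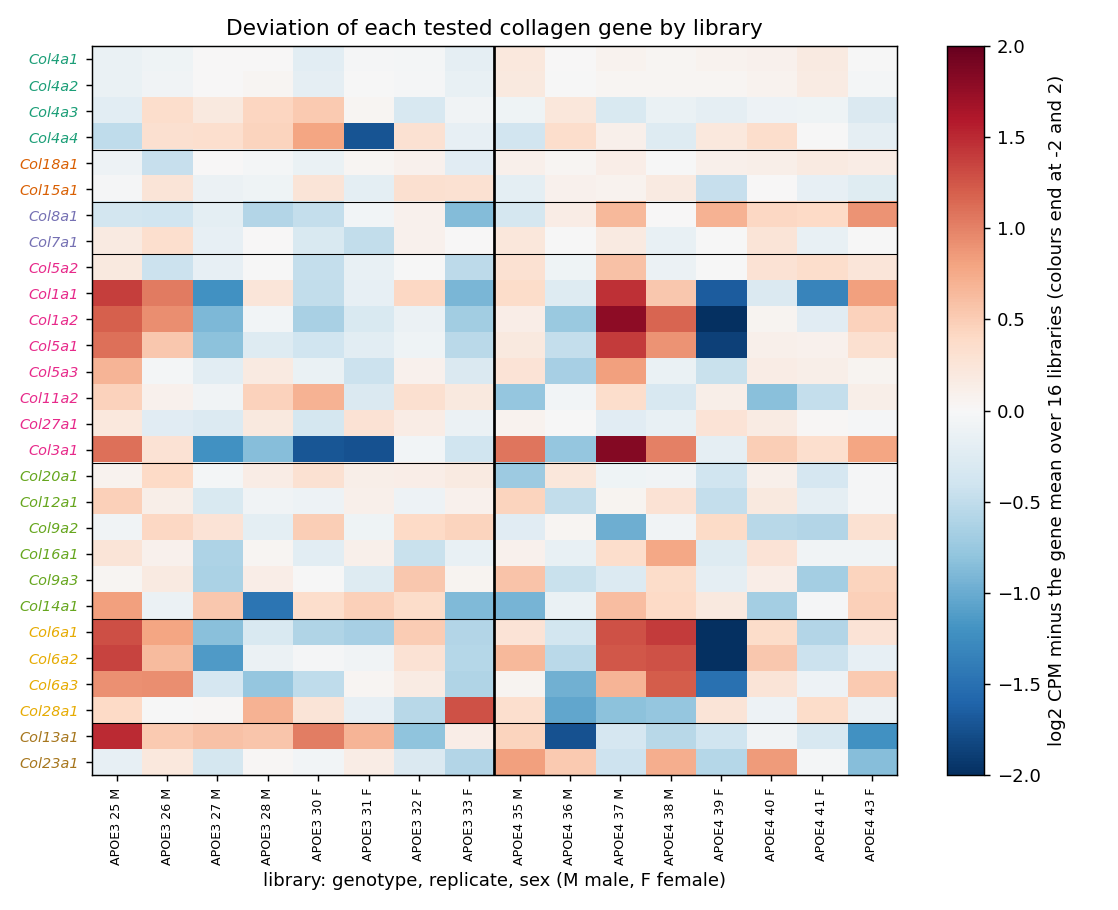
Log2 CPM of each tested collagen gene minus its mean over the 16 libraries, with genes in rows grouped by class and libraries in columns (replicate number and sex), *APOE3* to the left of the black line and *APOE4* to the right. Col1a1, Col1a2, Col5a1 and the type VI genes share high columns (*APOE3* 25 and 26, *APOE4* 37 and 38) and a low column (*APOE4* 39), and Col4a1 and Col4a2 stay pale throughout.

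Col13a1 (ENSMUSG00000058806.14, chromosome 10 from 61838236 to 61979108, minus strand) encodes a transmembrane collagen found at cell contacts and was the collagen called lower. The lowest, median and highest *APOE3* values of Col13a1 were 0.39, 1.22 and 2.43 CPM, and the *APOE4* values were 0.144, 0.577 and 1.11 CPM. All 8 *APOE4* libraries lay below the *APOE3* median and 2 below every *APOE3* library, and *APOE3* replicates 32 and 33 lay inside the *APOE4* range. Col13a1 averaged 1.3 ± 0.598 CPM in *APOE3* and 0.564 ± 0.294 CPM in *APOE4* libraries (adjusted p = 0.0227 for a log2 fold change of -1.21, SE 0.33). The values rest on 2 to 39 counts per library, and without *APOE3* replicate 30 the call was lost (adjusted p = 0.0518), while it stayed called without any of the other 15 libraries. Col23a1, another transmembrane collagen, averaged 0.976 ± 0.200 CPM in *APOE3* and 1.31 ± 0.623 CPM in *APOE4* libraries (adjusted p = 0.35 for a log2 fold change of 0.40, SE 0.27). Col23a1 ran from 0.67 CPM over a median of 0.979 to 1.25 CPM in *APOE3*, and from 0.529 over 1.31 to 2.02 CPM in *APOE4* libraries. The *APOE4* values enclosed the *APOE3* values.

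For the gene with the largest fall, the 250 bases before the RefSeq start of Col13a1 (GRCm38.p6, chr10:61979109-61979358, minus strand) hold 1 match to the TATA box on either strand, in capitals, whose first base lies at position -237 from the start, and none to the other motifs. Over the same stretches of all 32851 RefSeq starts, the TATA box (TATAAA) was found in 12.4%. The CCAAT box was found in 33.9%, and the AP-1 letters (TGANTCA) were found in 6.75%:
Col13a1: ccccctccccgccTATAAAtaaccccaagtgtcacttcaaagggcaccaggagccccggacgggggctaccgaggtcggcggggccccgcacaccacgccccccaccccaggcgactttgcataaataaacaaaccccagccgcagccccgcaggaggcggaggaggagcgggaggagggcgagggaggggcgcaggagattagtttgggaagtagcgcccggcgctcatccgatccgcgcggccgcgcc

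**Figure D4:**
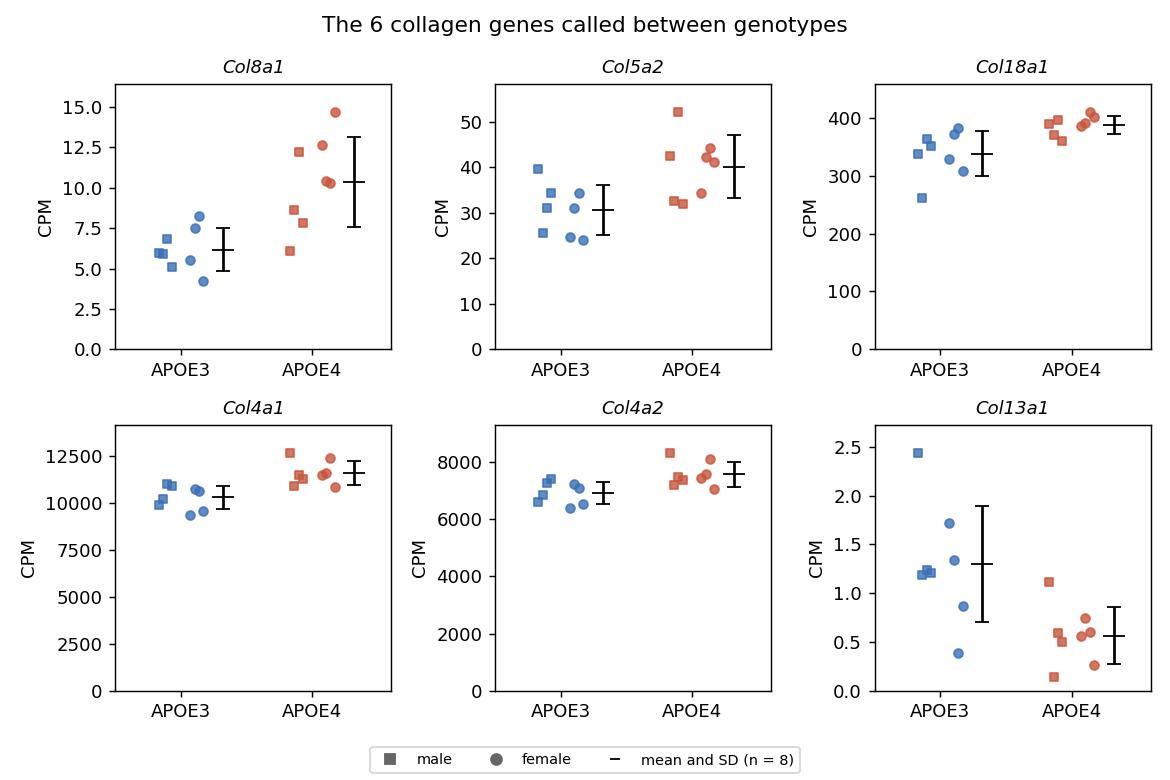
CPM of the 6 collagen genes called between genotypes, in each library (squares male, circles female), with the mean and SD of each genotype (n = 8) to the right of its points, and each vertical axis starting at 0. In the 5 genes that were higher, no *APOE4* library lies under the *APOE3* median, with overlap between the genotypes in each panel.

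The 16 genes that did not pass the filter were Col2a1, Col4a5, Col4a6, Col6a4, Col6a5, Col6a6, Col8a2, Col9a1, Col10a1, Col11a1, Col17a1, Col19a1, Col22a1, Col24a1, Col25a1 and Col26a1. Most belong to cartilage, skin, muscle or nerve. Col9a1, Col10a1 and Col6a5 had 0 counts in all libraries, and 10 of the 44 genes never exceeded 3 counts. The untested gene with the most counts in all was Col11a1, with 1 to 46 counts per library, followed by Col4a5 with 0 to 16 and Col2a1 with 0 to 18. With no filter on low counts, the 13 of the 16 that had any count were tested and 0 were called (edgeR, 2 at an unadjusted p under 0.05, Col25a1 with at most 2 and Col8a2 with at most 4 counts in a library).

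Within males and within females, where each group had 4 libraries, 0 of the 28 collagens passed the threshold in the same edgeR fit (5 in males and 8 in females at an unadjusted p under 0.05), and over all genes 0.0% passed in both. Of all 12481 genes, 1775 in males and 2428 in females had an unadjusted p under 0.05 in that fit. DESeq2's Wald test called 0 in males and 4 in females, Col4a1, Col5a2, Col8a1 and Col15a1. Over all genes it called 35 of 11029 in males and 418 of 11755 in females. In edgeR, 2 were called in females without *APOE3* replicate 31 and 1 without *APOE3* replicate 32 or *APOE4* replicate 35. Over all genes those fits called 879 of 12573, 55 of 12569 and 261 of 12570 in females. All 6 called genes kept the direction of the pooled comparison in both sexes. The genes were called on these same libraries, so the shared direction is no separate support. The log2 fold change of Col8a1 was 0.56 (SE 0.21) in males and 0.91 (SE 0.20) in females. That of Col4a1 was 0.14 (SE 0.066) and 0.20 (SE 0.066), and that of Col13a1 -1.39 (SE 0.47) and -0.98 (SE 0.48). In males Col8a1 had medians of 5.95 CPM in *APOE3* and 8.25 CPM in *APOE4*, and in females 6.54 and 11.5 CPM.

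The genotype effect differed between the sexes in 0 of 28 collagens, with 0.0% of all genes passing (edgeR interaction, 1 collagen, Col15a1, at an unadjusted p under 0.05, and 0 by DESeq2). Of all 12481 genes, 345 had an unadjusted p under 0.05 in the edgeR interaction. For Col15a1 the log2 fold change was 0.026 (SE 0.12) in males and -0.40 (SE 0.12) in females, and the difference of -0.42 did not pass (adjusted p = 1). Female against male cultures gave 0 of 28 calls, against 0.0721% over all genes, and 0 were called by DESeq2's Wald test. In edgeR 6 of the 28 had an unadjusted p under 0.05, against 550 of all 12481 genes. These 6 were Col1a1, Col1a2, Col3a1, Col5a1, Col6a1 and Col6a2. Their log2 differences, female minus male, were all below 0, at -1.03 (SE 0.35, unadjusted p = 0.00772) for Col1a2 and -0.93 (SE 0.35, unadjusted p = 0.0157) for Col6a1, and none was below the adjusted threshold. The sexes overlapped: among *APOE3* libraries, male replicates 25 and 26 were the highest for Col1a1, Col1a2, Col6a1 and Col6a2, and male replicate 27 was the lowest.

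Pairs of transcripts were compared across libraries on log2 CPM, 8 pairs in all, with two-sided permutation p-values adjusted over the 8. Col4a1 and Col4a2 had a Pearson r of 0.99 (permutation p = 1e-05, 2.67e-05 adjusted over the pairs) and a Spearman rho of 0.98 (permutation p = 1e-05, adjusted 8e-05). Leaving out the 2 libraries farthest from the median of Col4a1 gave an r of 0.98, and it was 0.99 within *APOE3* (exact permutation p = 9.92e-05) and 0.99 within *APOE4* libraries (exact permutation p = 2.48e-05). For the type I and type VI pairs the chains also rose and fell together. Col1a1 and Col1a2 had a Pearson r of 0.89 (permutation p = 1e-05, 2.67e-05 adjusted over the pairs) and a Spearman rho of 0.89 (permutation p = 3e-05, adjusted 0.000107). Without the 2 libraries farthest from the median of Col1a1, r was 0.83, and it was 0.96 within *APOE3* (exact permutation p = 4.96e-05) and 0.87 within *APOE4* libraries (exact permutation p = 0.00476). Col6a1 and Col6a2 had a Pearson r of 0.95 (permutation p = 1e-05, 2.67e-05 adjusted over the pairs) and a Spearman rho of 0.86 (permutation p = 4e-05, adjusted 0.000107). Leaving out the 2 libraries farthest from the median of Col6a1 gave an r of 0.91, and it was 0.91 within *APOE3* (exact permutation p = 0.000422) and 0.97 within *APOE4* libraries (exact permutation p = 0.000322). All 3 pairs encode chains of the same molecule. The permutation p of 1e-05 is the smallest that the resamples can give.

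Col3a1 and Col5a2 had a Pearson r of 0.67 (permutation p = 0.00413, 0.00661 adjusted over the pairs) and a Spearman rho of 0.69 (permutation p = 0.00412, adjusted 0.00824). Without the 2 libraries farthest from the median of Col3a1, r was 0.61, and it was 0.38 within *APOE3* (exact permutation p = 0.35) and 0.66 within *APOE4* libraries (exact permutation p = 0.0735). This relation of neighbouring genes did not pass within either genotype. Col4a1 and Cdh5 had a Pearson r of 0.72 (permutation p = 0.00167, 0.00334 adjusted over the pairs) and a Spearman rho of 0.66 (permutation p = 0.00636, adjusted 0.0102). Leaving out the 2 libraries farthest from the median of Col4a1 gave an r of 0.72, and it was 0.57 within *APOE3* (exact permutation p = 0.141) and 0.26 within *APOE4* libraries (exact permutation p = 0.566). Cdh5 encodes the endothelial junction protein VE-cadherin, and within genotypes the relation with Col4a1 did not pass the test, so the pooled value cannot be told apart from the genotype difference. Col4a1 and Pdgfrb had a Pearson r of 0.50 (permutation p = 0.0478, 0.0638 adjusted over the pairs) and a Spearman rho of 0.59 (permutation p = 0.0174, adjusted 0.0233). Without the 2 libraries farthest from the median of Col4a1, r was 0.62, and it was 0.48 within *APOE3* (exact permutation p = 0.238) and 0.011 within *APOE4* libraries (exact permutation p = 0.98). For Pdgfrb, the receptor of pericytes and smooth muscle cells, the relation with the fibrillar genes was weak. Over 16 libraries r was 0.11 for Col1a1 (permutation p = 0.693, adjusted 0.693) with a rho of -0.11 (permutation p = 0.696), and 0.26 for Col3a1 (permutation p = 0.344, adjusted 0.393) with a rho of 0.17 (permutation p = 0.534). Without the 2 libraries farthest from the median, r was 0.047 and 0.045.

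Genes that make, process, hold or sense collagen were read beside the collagens, against the 12.8% called over all genes. Of 20 genes of collagen folding and modification in the endoplasmic reticulum, all tested, 3 were called higher and 1 lower. Their median log2 fold change was 0.020. P4ha2, a catalytic subunit of prolyl 4-hydroxylase, averaged 20.3 ± 2.62 CPM in *APOE3* and 24.7 ± 2.19 CPM in *APOE4* libraries (adjusted p = 0.0201 for a log2 fold change of 0.28, SE 0.076). P4hb, its protein disulfide isomerase subunit, averaged 578 ± 26.1 CPM in *APOE3* and 642 ± 52.2 CPM in *APOE4* libraries (adjusted p = 0.0331 for a log2 fold change of 0.15, SE 0.045). Colgalt1, which adds galactose to hydroxylysine, averaged 373 ± 21.1 CPM in *APOE3* and 418 ± 26.4 CPM in *APOE4* libraries (adjusted p = 0.0174 for a log2 fold change of 0.16, SE 0.042), and P3h4, a partner in the modification complex, was lower at 14.9 ± 0.758 CPM in *APOE3* and 12.8 ± 1.36 CPM in *APOE4* libraries (adjusted p = 0.0394 for a log2 fold change of -0.21, SE 0.066). Serpinh1, the collagen chaperone HSP47, had a log2 fold change of -0.014 (adjusted p = 0.872). The P4ha2 and Colgalt1 calls did not depend on any 1 library. The P4hb call was lost without *APOE3* replicates 26, 28, 30 or 33 or *APOE4* replicates 35, 40 or 41, and the P3h4 call without *APOE3* replicates 25, 26, 28, 30, 31 or 33 or *APOE4* replicates 39, 40, 41 or 43.

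Of 14 genes of procollagen processing and cross-linking, 11 were tested and 0 called (edgeR, 1 at an unadjusted p under 0.05, and DESeq2's Wald test called 1, Loxl4, as edgeR did without *APOE3* replicate 27). Pxdn, the peroxidase that cross-links type IV collagen, averaged 762 ± 39.9 CPM in *APOE3* and 793 ± 34.3 CPM in *APOE4* libraries (adjusted p = 0.318 for a log2 fold change of 0.057, SE 0.037), and Bmp1, the procollagen C-proteinase, 73.1 ± 4.33 CPM in *APOE3* and 77.1 ± 4.69 CPM in *APOE4* libraries (adjusted p = 0.244 for a log2 fold change of 0.077, SE 0.043). Of 10 basement membrane partners of type IV collagen, all tested, 3 were called higher and none was called lower. Nid1, a linker between laminin and type IV collagen, averaged 736 ± 61.7 CPM in *APOE3* and 877 ± 111 CPM in *APOE4* libraries (adjusted p = 0.0217 for a log2 fold change of 0.25, SE 0.068). Hspg2, the proteoglycan perlecan, averaged 5042 ± 345 CPM in *APOE3* and 5574 ± 316 CPM in *APOE4* libraries (adjusted p = 0.0301 for a log2 fold change of 0.14, SE 0.042), and Sparc, a collagen-binding matricellular protein, 5089 ± 347 CPM in *APOE3* and 5679 ± 405 CPM in *APOE4* libraries (adjusted p = 0.0296 for a log2 fold change of 0.16, SE 0.046). Without *APOE3* replicate 30 or *APOE4* replicate 41, 0 of the 10 were called (edgeR, 5 and 4 at an unadjusted p under 0.05). Over all genes those fits called 853 of 12531 and 846 of 12546. The Hspg2 call was also lost without *APOE3* replicates 25, 26 or 33 or *APOE4* replicate 35, and the Sparc call without *APOE3* replicates 26 or 33 or *APOE4* replicate 35. With no filter on low counts the Hspg2 call was lost too (edgeR, adjusted p = 0.0545).

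Of 10 collagen receptors, 7 were tested and 3 were called higher in *APOE4*. Itga1, which with Itgb1 forms the integrin that prefers type IV collagen, averaged 307 ± 9.42 CPM in *APOE3* and 338 ± 9.05 CPM in *APOE4* libraries (adjusted p = 0.00718 for a log2 fold change of 0.14, SE 0.028). Itgb1, the shared beta subunit, averaged 1183 ± 83.5 CPM in *APOE3* and 1325 ± 44.9 CPM in *APOE4* libraries (adjusted p = 0.0143 for a log2 fold change of 0.16, SE 0.040). Itga2, the subunit of another collagen-binding integrin, averaged 8.35 ± 1.29 CPM in *APOE3* and 10.3 ± 0.905 CPM in *APOE4* libraries (adjusted p = 0.0383 for a log2 fold change of 0.30, SE 0.092), with a call lost without *APOE3* replicates 26, 28, 30 or 33 or *APOE4* replicates 35, 37, 38, 39, 41 or 43. The platelet receptor Gp6 and the leukocyte receptor Lair1 never exceeded 1 count.

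**Figure D5:**
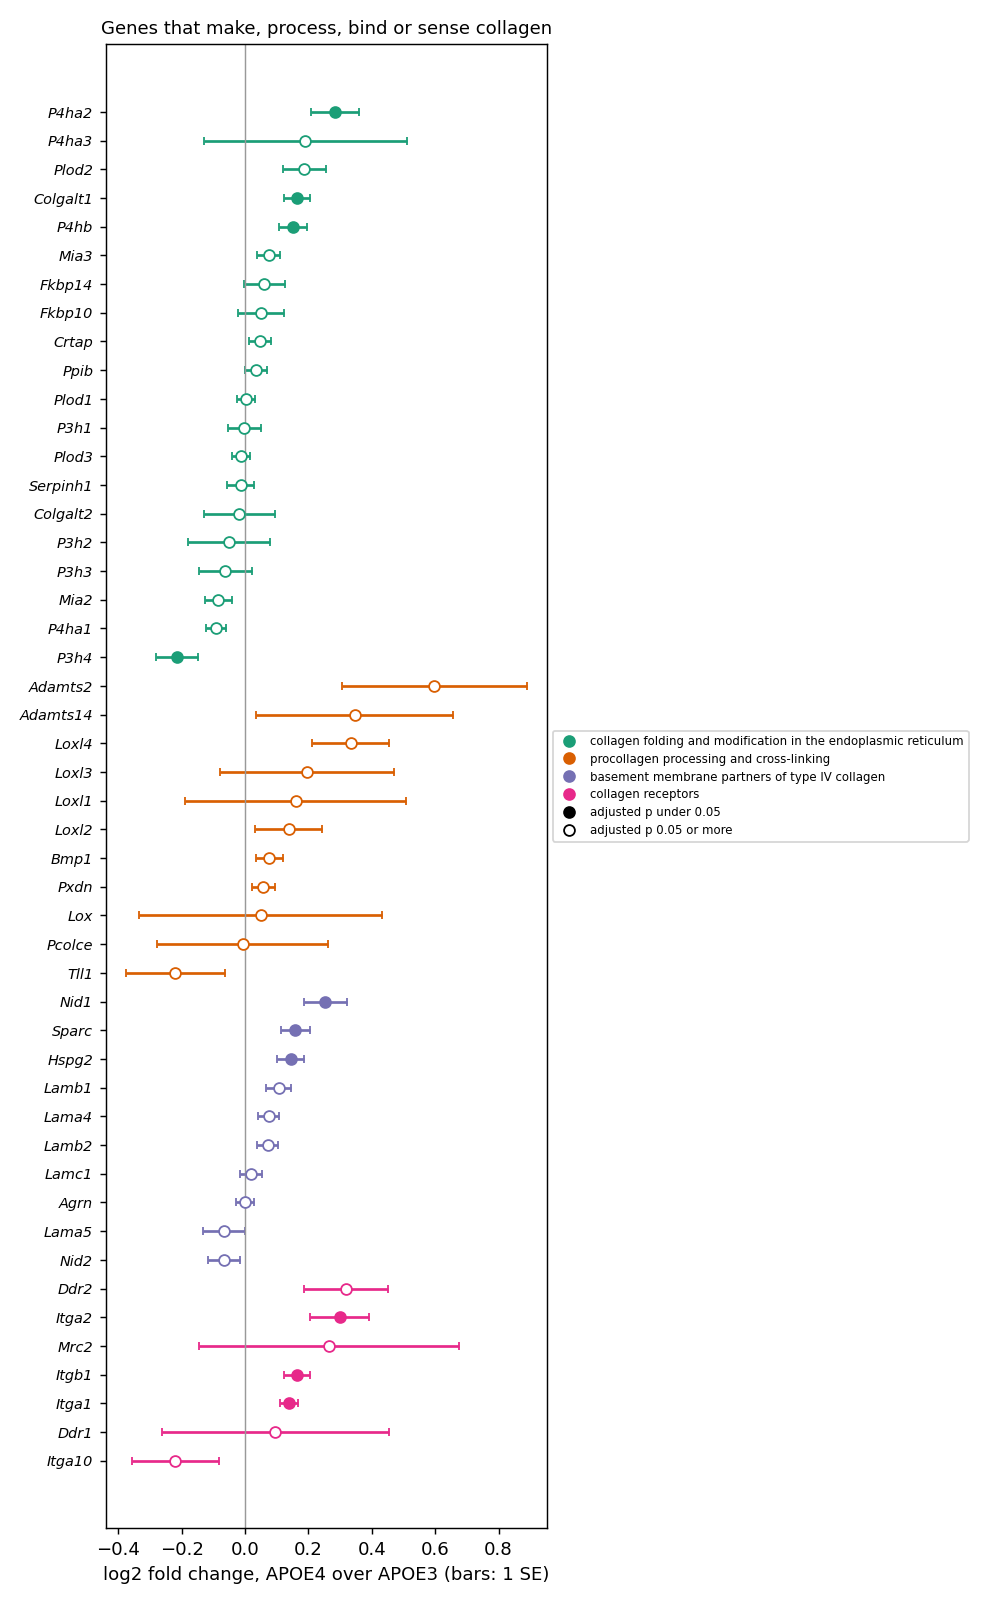
Log2 fold change of *APOE4* over *APOE3*, with bars of 1 SE, for the tested genes of 4 lists: collagen folding and modification, procollagen processing and cross-linking, basement membrane partners and collagen receptors. Filled points passed an adjusted p of 0.05, with P4ha2, Colgalt1, P4hb, Nid1, Sparc, Hspg2, Itga1, Itga2 and Itgb1 above 0 and P3h4 below.

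Markers of other cells were measured in the same libraries. The 14 markers of pericytes and smooth muscle summed to 193 to 362 CPM in *APOE3* and 227 to 345 CPM in *APOE4* libraries, most of it Acta2 and Tagln, and 0 of the 9 tested were called (edgeR, 2 at an unadjusted p under 0.05). Of the 14, Rgs5, Kcnj8, Abcc9, Vtn and Higd1b did not pass the filter. The other 9 did, among them the pericyte receptor gene Pdgfrb with 23 to 128 counts per library. With the pericyte and smooth muscle score as a covariate, Col8a1 and Col13a1 were the 2 collagens called, and over all genes 350 were. The 10 fibroblast markers summed to 9.19 to 18.8 CPM in *APOE3* and 16.1 to 30.0 CPM in *APOE4* libraries, Lum, Dpt, Slc6a13, Scara5 and Mfap4 never exceeded 3 counts, and Fbln1 alone was called (log2 fold change 0.90, adjusted p = 0.00542). Fbln1 ranged from 7.09 to 16.2 CPM in *APOE3* and from 14.9 to 27.2 CPM in *APOE4*. Astrocyte markers summed to 31.9 to 41.7 CPM in *APOE3* and 33.4 to 43.4 CPM in *APOE4*, mostly Gja1, with Aqp4 and Slc1a2 at or under 3 counts. Neither tested astrocyte marker was called, but both had an unadjusted p under 0.05 (edgeR), with log2 fold changes of 0.13 for Gja1 (adjusted p = 0.167) and 0.65 for Aldh1l1 (adjusted p = 0.149). Microglial, oligodendrocyte and neuronal markers summed to at most 0.792, 1.97 and 5.69 CPM, and of the 3 of these that were tested 0 were called (edgeR, 2 at an unadjusted p under 0.05). Of the 26 proliferation genes, 24 were called higher in *APOE4* and 0 lower, against 12.8% called over all genes. All 26 had an unadjusted p under 0.05 (edgeR), against 3617 of all 12481 genes. The summed level of the 26 was 1192 to 2403 CPM in *APOE3* and 1977 to 3383 CPM in *APOE4* libraries. The part of proliferation and of these other cells in the collagen results was not tested, and the covariate fits given above do not measure it. The proliferation score was built from the same 26 genes, 24 of them called, so its fit cannot tell proliferation apart from genotype.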

How the data were processed

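Poly-A selected RNA of 16 cultures was sequenced with paired reads, from libraries made with 17 PCR cycles. The authors deposited raw read counts per gene, whole numbers with no normalization, for mouse genes and 1 row of human APOE. The submitters' processing notes name STAR and featureCounts with the builds mm10 and hg38. Versions, annotation release and strand setting are not given in the sources used here, so reads in exons that overlap another gene (Col4a1 with Col4a2, Col4a3, Col5a1, Col9a3 and Col10a1 with other genes) cannot be split.

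Symbols, coordinates and exon lengths came from GENCODE vM21 by gene identifier. The counts were filtered by filterByExpr on genotype, TMM-scaled and tested with edgeR 4.0.16 (glmQLFit and glmQLFTest, R 4.3.3), with genotype alone as the term and Benjamini-Hochberg adjustment over 12481 genes at 0.05. SE is the absolute log2 fold change over the square root of F. A fit of 4 groups gave the effects within sex and their difference, and an additive fit gave the sex difference. CPM are per TMM-scaled library, and log2 CPM used a prior count of 2. Genes were named if called, or if among the 2 with the highest mean CPM of a class. The script was tested on simulated data. DESeq2 1.42.0, limma 3.58.1, sva 3.50.0, other filters, a correction for GC content and length, and the omission of each library were alternatives. Further alternatives had a covariate: sex, 1 surrogate variable, the proliferation score, or the pericyte and smooth muscle score. The collagen genes and gene lists were chosen with earlier results of these data known. Depth was 12717847 to 18624417 counts, and floors of 3 counts cover counting error only.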

Additional observations from a re-analysis of the deposited data

Results flagged for a closer look

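Among 78 checks of the libraries of 1 genotype (39 genes in each of 2 genotypes, n = 8), 2 found a library whose gap to the nearest other exceeded Dixon's critical value of 0.526 times the range. Col4a3 was highest in *APOE4* replicate 36, at 6.63 CPM. Col6a2 was lowest in *APOE4* replicate 39, at 0.45 CPM, and the same library was also the lowest of all 16 for Col1a1, Col1a2, Col5a1, Col6a1 and Col6a3. Chance flags about 1 in 20 such groups.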

How the results depend on the processing

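No paired analysis was possible because the genotypes share no replicate number. Of 155 values of the called collagens under alternatives, 124 kept direction and call, 31 kept direction and lost the call, and none changed direction. Of 565 values of collagens not called, 507 stayed, 4 passed the threshold and 54 changed direction. The alternatives reuse the libraries on which the genes were called, so the kept direction of the called genes is no separate support. Depth limits genes with few counts, and the cause of the changes was not tested. The number of collagens called was 0 with the proliferation score and 2 with the pericyte and smooth muscle score, and 2 to 8 over fits without 1 library. Over all genes those fits called 0, 350, and 846 to 2127. In females the number of collagens called was 3 with no filter and 4 with DESeq2's Wald test, and 0 to 2 without 1 library. Over all genes in females the calls were 366 of 22474, 418 of 11755, and 0 to 879. The folding list had 0 calls with either score and 2 to 5 without 1 library. The processing list had 1 call with DESeq2's Wald test and 0 to 1 without 1 library. The basement membrane partners had 0 with either score and 0 to 4 without 1 library, and the receptors had 0 with the proliferation score and 1 with the other.

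With the proliferation score as a covariate, the log2 fold change became 0.034 for Col11a2, 0.023 for Col15a1, 0.082 for Col1a1, -0.16 for Col27a1, 0.46 for Col4a4, -0.023 for Col5a3, -0.0068 for Col6a2, -0.054 for Col6a3, 0.049 for Col9a3, -0.0048 for P4hb, -0.012 for Nid1 and -0.018 for Sparc. With the pericyte and smooth muscle score, the log2 fold change became -0.055 for Col1a2, -0.053 for Col5a1, -0.16 for Col5a3, -0.090 for Col6a1, -0.22 for Col6a2, -0.084 for Col6a3 and 0.023 for Col9a3. With limma's voom and sample quality weights, the log2 fold change became 0.11 for Col14a1, 0.024 for Col4a4, -0.042 for Col6a1, -0.27 for Col6a2 and -0.018 for Col6a3. With GC content and gene length corrected, the log2 fold change became 0.015 for Col1a1 and 0.032 for Col9a3. Without 1 library, values that changed direction spanned -0.11 to 0.038 for Col12a1, -0.25 to 0.055 for Col14a1, -0.33 to 0.24 for Col1a1, -0.030 to 0.59 for Col1a2, -0.029 to 0.061 for Col27a1, -0.25 to 0.044 for Col4a4, -0.084 to 0.19 for Col5a3, -0.015 to 0.50 for Col6a1, -0.067 to 0.42 for Col6a2, -0.10 to 0.29 for Col6a3 and -0.094 to 0.10 for Col9a3, none past the threshold. The rank correlation of Col1a1 with Pdgfrb was -0.11, and r within *APOE4* was -0.035 for Col1a1 and -0.086 for Col3a1 with Pdgfrb. For Col4a1 with Pdgfrb, rho was 0.59 and r 0.62 without the 2 farthest libraries, both past the threshold. Within *APOE3* and *APOE4*, r was 0.38 and 0.66 for Col3a1 with Col5a2, and 0.57 and 0.26 for Col4a1 with Cdh5, none past it.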
